A study of Mus musculus with 31 samples.

Results

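The 9 genes described here encode enzymes of the tricarboxylic acid cycle: Cs, Idh3a, Idh3b, Idh3g, Ogdh, Suclg1, Sucla2, Fh1 and Mdh2. They were found by symbol in the array's probe annotation, and the list uses no measured value as a criterion. Each had 1 probe paired with that gene alone, and they are 9 of the 19938 genes measured. The study hybridised 31 arrays with RNA of 9 populations sorted from the bone marrow of wild-type C57BL/6 mice, using RNA amplified from 20000 sorted cells per array. No population was treated. The ages, sexes and numbers of animals were not used here, and p-values measure the spread between arrays that the labels call biological replicates.

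The lineage-negative, cKit+, Sca1+ compartment gave 5 populations. Long-term stem cells (LT-HSC, n = 4) were Flk2-, CD48- and CD150+, and short-term stem cells (ST-HSC, n = 3) were Flk2-, CD48- and CD150-. Among multipotent progenitors, MPP2 (n = 3) were Flk2-, CD48+ and CD150+, MPP3 (n = 3) were Flk2-, CD48+ and CD150-, and MPP4 (n = 5) were Flk2+. Common myeloid progenitors (CMP, n = 3) were lineage-negative, cKit+, CD34+ and negative for the Fc gamma receptor, which granulocyte-macrophage progenitors (GMP, n = 4) carried. Pre-granulocytes (PreGr, n = 3) were sorted as Mac1+ with intermediate Gr1, and granulocytes (Gr, n = 3) as Mac1+ with high Gr1. A sort gate enriches a population and does not make it pure.

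The tricarboxylic acid cycle runs in the mitochondrial matrix. It oxidises the acetyl group of acetyl-CoA to carbon dioxide and passes the electrons to the respiratory chain, and its intermediates also feed the synthesis of amino acids, haem and lipids. Quiescent blood stem cells and mature granulocytes are both known for drawing heavily on glycolysis, whereas dividing progenitors carry active mitochondria. Citrate synthase (Cs) brings acetyl-CoA into the cycle, and isocitrate dehydrogenase 3, built from the catalytic subunit Idh3a with Idh3b and Idh3g, makes 2-oxoglutarate. Ogdh is the first component of the 2-oxoglutarate dehydrogenase complex. Suclg1 is the alpha subunit of succinyl-CoA ligase and Sucla2 its ATP-forming beta subunit. Fumarase (Fh1) and malate dehydrogenase 2 (Mdh2) complete the turn, and Mdh2 also works in the shuttle that brings reducing equivalents into mitochondria.

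Promoter sequences are shown for Fh1, a member with one of the steepest falls in granulocytes, for Mdh2, whose granulocyte level did not fall, and for Idh3g. The 1 window of Idh3g held 2 of the searched motifs, and 2 of the windows of Ogdh, not shown, did so too. Each covers the 250 bases before the start site in RefSeq, build GRCm38.p6, written 5′ to 3′ on the gene's strand. Those regions are chr1:175625636-175625885 on the minus strand for Fh1, chr5:135778399-135778648 on the plus strand for Mdh2 and chrX:73786898-73787147 on the minus strand for Idh3g. Capitals mark motif matches, which in Idh3g are ATGGCGG (YY1) and then CCGGAAG (an ETS motif of the GABP kind).
Fh1: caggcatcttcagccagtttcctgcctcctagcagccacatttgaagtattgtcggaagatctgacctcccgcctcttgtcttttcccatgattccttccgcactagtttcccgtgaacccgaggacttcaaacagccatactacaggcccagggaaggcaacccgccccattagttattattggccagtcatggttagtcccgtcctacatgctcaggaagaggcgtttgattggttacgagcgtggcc
Mdh2: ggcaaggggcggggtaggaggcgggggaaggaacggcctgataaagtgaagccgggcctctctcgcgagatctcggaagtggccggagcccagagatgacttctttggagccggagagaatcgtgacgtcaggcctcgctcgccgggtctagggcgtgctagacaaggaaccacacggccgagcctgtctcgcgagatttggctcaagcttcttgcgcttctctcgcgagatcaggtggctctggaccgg
Idh3g: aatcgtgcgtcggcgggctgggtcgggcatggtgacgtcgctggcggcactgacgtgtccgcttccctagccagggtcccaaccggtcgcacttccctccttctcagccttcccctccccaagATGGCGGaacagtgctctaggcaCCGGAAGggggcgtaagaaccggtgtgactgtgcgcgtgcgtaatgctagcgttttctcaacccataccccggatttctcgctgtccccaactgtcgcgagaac

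Of the 9 members, 8 matched an entry in the RefSeq promoters, all but Idh3a. The 5 motifs searched on both strands belong to factors known to act at genes for mitochondrial proteins, and no match to one motif overlapped a match to another in the sequences shown. TGCGCA, the core of the NRF1 motif, lay in 1 of the 8 members (Ogdh), and in 6.42 percent of 32817 promoters. CCGGAAG lay in 1 (Idh3g), against 6.9 percent of all promoters. CACGTG, the E-box of the MYC kind, lay in 1 (Ogdh), against 6.02 percent. ATGGCGG lay in 1 (Idh3g), against 2.21 percent, and AAGGTCA, the ERR motif, lay in 0, against 4.08 percent. Ogdh has 6 start sites in the table, of which 2 carried TGCGCA and 3 CACGTG. Some of its windows overlap and share a match, and it had more sequence in which to match. A match is a description of the letters and not of a bound site.

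All values below are log2 values after quantile normalization, which gives every array the same distribution. The deposited arrays fell into 5 sets that share a level and some identical values, and the labels do not name them. Set 1 holds LT-HSC 1 to 3. Set 2 mixes 5 arrays, which are LT-HSC 4, GMP 4, MPP3 3 and MPP4 4 and 5. Set 3 holds ST-HSC, MPP2, and MPP3 1 and 2, set 4 holds MPP4 1 to 3 and CMP, and set 5 holds GMP 1 to 3, PreGr and Gr. Deposited medians were 6.19 to 6.22 in set 1 and 7.78 to 7.83 in set 3, with the other sets between them. Changes are therefore given from a limma fit with the set as a block (the set-adjusted change, ± SE), and the words rose and fell are kept for genes called at an adjusted p under 0.05, in the same direction, by that fit and by a limma fit without sets. The comparisons of PreGr and Gr with GMP lie within set 5, where GMP 4 carries no weight in the set-adjusted change. CMP was compared with MPP4 within set 4, and MPP2 and MPP3 with ST-HSC within set 3. Comparisons with LT-HSC rest on the single array LT-HSC 4. Of the sort markers, Kit, Cd34, Cd48, Fcgr3, Itgam and Ly6g followed the gates, and Slamf1, the CD150 gene, was highest in LT-HSC. Flt3, the Flk2 gene, was highest in MPP4 (11.27 ± 0.54, SD, n = 5) but stood at 9.96 ± 0.09 (n = 3) in ST-HSC and 9.72 ± 0.13 (n = 3) in MPP3, both sorted as Flk2-.

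**Figure D1:**
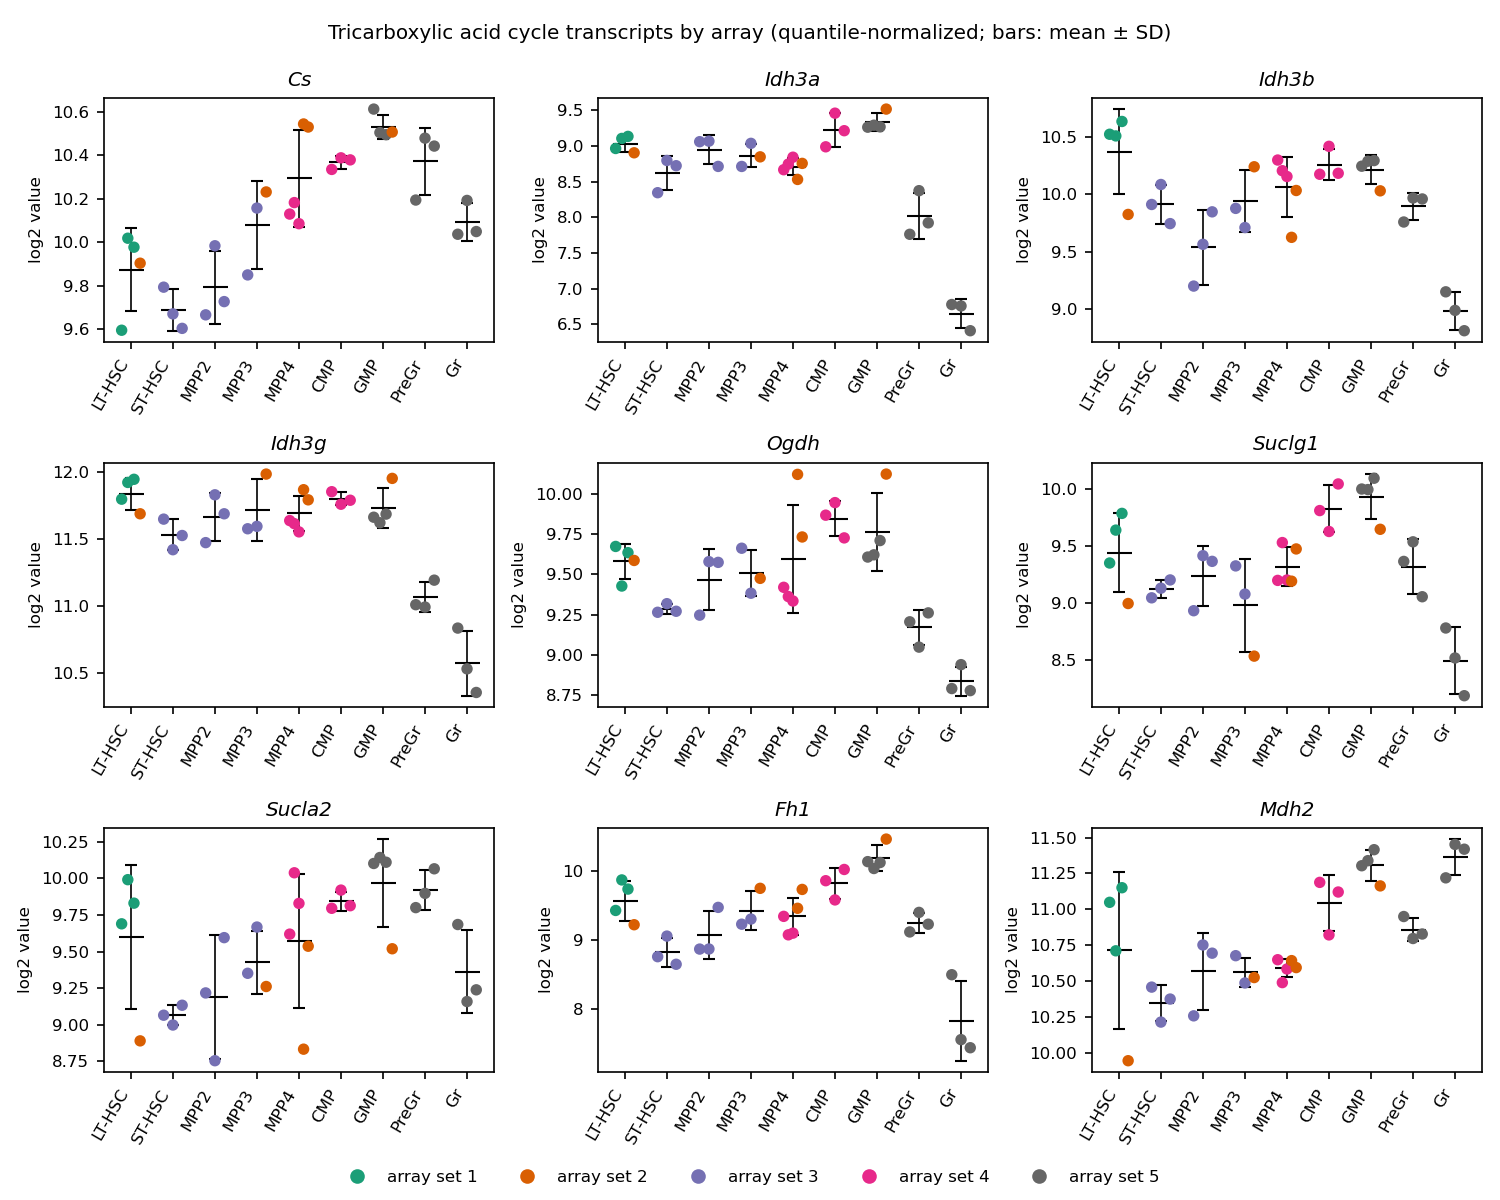
Quantile-normalized log2 value of each of the 9 genes (vertical axis, its own range in each panel) in each array (points, coloured by array set), by population from stem cells to granulocytes on the horizontal axis; bars give mean ± SD. Idh3a, Fh1 and Idh3g lie lowest in Gr, where the Mdh2 arrays lie between 11.22 and 11.45.

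The set-adjusted level was highest in CMP or GMP for 6 of the 9 members and lowest in Gr for 6, and both held for 4 (Idh3a, Suclg1, Sucla2 and Fh1). All 9 members differed among the 9 populations by limma's F test in both fits (set-adjusted adjusted p between 1.13e-09 for Idh3a and 0.0215 for Sucla2). This test called 48 percent of all genes set-adjusted and 74.2 percent without sets, so a call alone says little of these genes. The distance between a member's highest and lowest population was 2.63 for Idh3a, 2.27 for Fh1, 1.74 for Suclg1 and 1.62 for Idh3b. It was 1.23 for Mdh2, 1.19 for Idh3g, 1.16 for Ogdh, 0.87 for Cs and 0.76 for Sucla2. The median of these 9 distances was 1.23, and that of all genes was 0.73. The members lowest in Gr were Idh3a, Idh3b, Idh3g, Suclg1, Sucla2 and Fh1. Ogdh was lowest in ST-HSC, and Cs and Mdh2 in LT-HSC, whose set-adjusted level rests on LT-HSC 4. Without sets the lowest population was ST-HSC for Cs, Mdh2 and Sucla2 and Gr for Ogdh. The highest level fell in GMP for Idh3a, Fh1 and Sucla2 and in CMP for Cs, Ogdh and Suclg1. Mdh2 was highest in Gr, Idh3b in ST-HSC and Idh3g in MPP2, but without sets Idh3b and Idh3g were both highest in LT-HSC and Cs and Suclg1 in GMP.

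**Figure D2:**
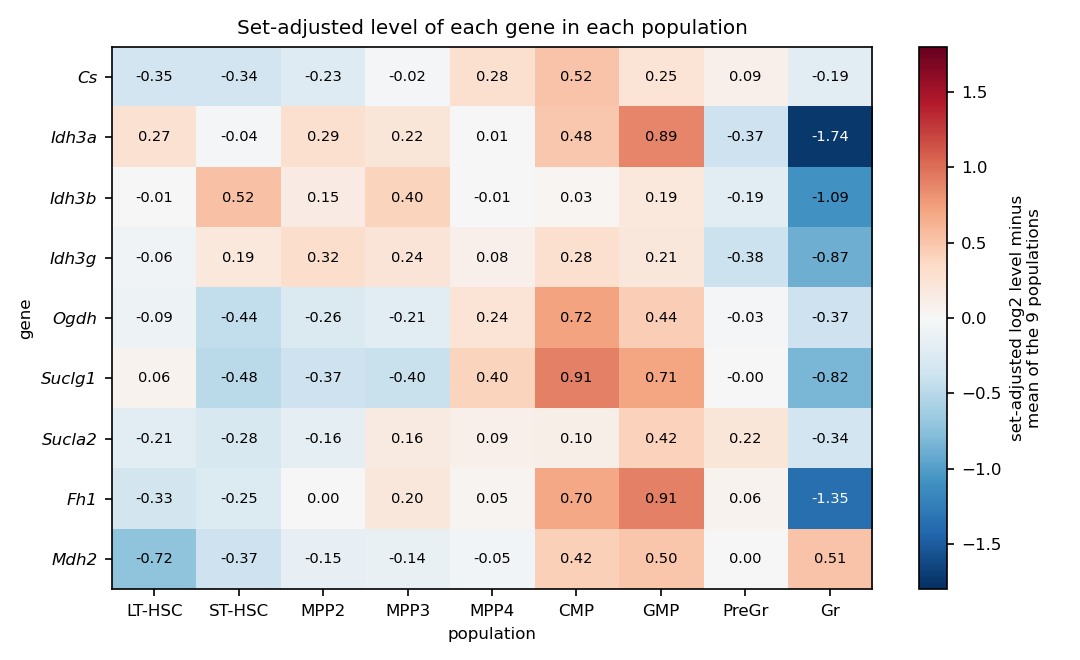
Set-adjusted log2 level of each of the 9 genes (rows) in each population (columns), as its difference from the gene's mean over the 9 populations; red is above and blue below that mean. Idh3a reaches -1.74 and Fh1 -1.35 in Gr, where Mdh2 is at 0.51.

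Along this order of levels, few neighbouring populations were called different. Ranking by the same estimates puts the closest levels side by side, so few calls were likely. With the populations ranked by set-adjusted level, each member has 8 neighbouring pairs. Gr lay next below PreGr for Idh3a, Idh3b and Idh3g and was called lower in each (limma, adjusted p = 4.67e-07, 1.56e-05 and 0.000773). In the other 6 members 0 of 8 neighbouring pairs were called. This does not place Gr level with the rest. For Fh1, Gr lay 1.03 ± 0.41 below its neighbour LT-HSC, which is in other sets (limma, adjusted p = 0.0716). For Mdh2, the 2 highest populations were Gr and GMP, which differed by 0.01 ± 0.13 (adjusted p = 0.96). Over all 36 pairs of populations, the number called in both fits was 11 for Suclg1, 10 for Idh3a, 9 for Idh3g, 8 for Idh3b and 7 each for Ogdh and Fh1. Cs and Mdh2 had 4 each and Sucla2 had 1. The same count over all genes is not given here, so these numbers compare the members only with each other.

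Averaged over the 9 members, each centred on its own mean, the set-adjusted level was -0.16 in LT-HSC, -0.17 in ST-HSC, -0.05 in MPP2, 0.05 in MPP3 and 0.12 in MPP4. It was 0.46 in CMP, 0.50 in GMP, -0.07 in PreGr and -0.70 in Gr. The fit without sets gave a mean of 0.17 for LT-HSC, the population whose value moved most between the fits, and -0.23, -0.12, 0.00, 0.07, 0.39, 0.50, -0.07 and -0.70 for the others in the same order. Array by array, this mean lay between -0.90 and -0.55 in Gr and between -0.18 and -0.03 in PreGr, and between 0.45 and 0.49 in GMP. The Gr, PreGr and GMP arrays thus formed 3 ranges with no overlap.

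The first step of the granulocyte path asks how pre-granulocytes differ from their progenitors. In PreGr, 5 of the 9 members fell below GMP: Idh3a, Fh1, Suclg1, Idh3g and Ogdh. Over all genes 8.98 percent fell in both fits and 6.63 percent rose. The set-adjusted fit alone called 7 members and 19 percent of all genes, and the fit without sets 5 members and 16.6 percent. Idh3a, the catalytic subunit of isocitrate dehydrogenase 3, was at 7.76, 8.37 and 7.92 in PreGr, against 9.26, 9.29, 9.27 and 9.52 in GMP. Every PreGr array lay below every GMP array, and Idh3a fell by 1.26 ± 0.15, or 2.39-fold (limma, adjusted p = 1.73e-06). Fh1 was at 9.12, 9.40 and 9.23 in PreGr, against 10.14, 10.04, 10.12 and 10.46 in GMP. Again no array overlapped, and Fh1 fell by 0.85 ± 0.21 (limma, adjusted p = 0.00402). Suclg1, at 9.05 to 9.53 in PreGr against 9.64 to 10.09 in GMP, fell by 0.71 ± 0.16 (limma, adjusted p = 0.00227), but the fit without sets no longer called it when GMP 1, GMP 3, PreGr 1 or PreGr 3 was left out (adjusted p = 0.0503 to 0.152). Idh3g fell by 0.59 ± 0.10 and Ogdh by 0.47 ± 0.11 (limma, adjusted p = 0.00015 and 0.00234). Arrays of PreGr and GMP did not overlap in 8 of 9 members, Sucla2 being the exception, where 29.3 percent of all genes had no overlap.

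The other 4 members did not pass both fits at this step. Mdh2 was at 10.95, 10.80 and 10.83 in PreGr, against 11.30, 11.34, 11.42 and 11.16 in GMP. Its change was -0.49 ± 0.13 (limma, adjusted p = 0.00607), while the fit without sets gave adjusted p = 0.0862. That p was 0.00731 without LT-HSC 4, whose Mdh2 value lay far below the other LT-HSC arrays. Idh3b changed by -0.38 ± 0.13 (limma, adjusted p = 0.0493), with 0.281 without sets. Sucla2 (-0.20, 95% interval -0.57 to 0.18) and Cs (-0.17, 95% interval -0.39 to 0.06) were called in neither fit. The median over the 9 members was -0.49, and that of all genes was 0.01.

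The second step compares granulocytes with pre-granulocytes. In Gr, 5 of the 9 members fell below PreGr, the 3 subunits of isocitrate dehydrogenase 3 with Fh1 and Suclg1, while 11.2 percent of all genes fell and 8.12 percent rose. The set-adjusted fit alone called 8 members and 26.5 percent of all genes, and the fit without sets 5 members and 19.3 percent. Fh1 was at 8.50, 7.56 and 7.44 in Gr, against 9.12, 9.40 and 9.23 in PreGr. Gr 1 was the highest of its group, yet lay below every PreGr array, and Fh1 fell by 1.42 ± 0.21, or 2.67-fold (limma, adjusted p = 1.35e-05). Idh3a was at 6.78, 6.76 and 6.41 in Gr, against 7.76, 8.37 and 7.92 in PreGr, and fell by 1.37 ± 0.15, or 2.59-fold (limma, adjusted p = 4.67e-07). Its Gr values were dim, between the 26.2 and 34.8 percentiles of their arrays, and whether the probe was above background there was not tested, so the size of any Idh3a change that involves Gr is uncertain. Idh3b was at 9.15, 8.99 and 8.81 in Gr, against 9.76, 9.97 and 9.96 in PreGr, and fell by 0.91 ± 0.13 (limma, adjusted p = 1.56e-05). Both subunit genes were thus lower in each Gr array than in any PreGr array. Suclg1 fell by 0.82 ± 0.16 (limma, adjusted p = 4e-04) and Idh3g by 0.49 ± 0.10 (limma, adjusted p = 0.000773), which the fit without sets no longer called without Gr 3 (adjusted p = 0.0805). Gr and PreGr arrays overlapped in none of the 9 members, where 39.5 percent of all genes had no overlap.

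Mdh2 went the other way in its values. It was at 11.22, 11.45 and 11.42 in Gr, against 10.95, 10.80 and 10.83 in PreGr. Each Gr array lay above each PreGr array, with a change of 0.50 ± 0.13 that the set-adjusted fit called (limma, adjusted p = 0.00386) and the fit without sets did not (adjusted p = 0.059). Without LT-HSC 3, LT-HSC 4 or MPP2 1 the fit without sets called it as well (adjusted p = 0.0402, 0.00398 and 0.0486). Sucla2 (-0.56 ± 0.18, adjusted p = 0.0225) and Ogdh (-0.33 ± 0.11, adjusted p = 0.023) were called by limma only with sets, and Cs (-0.28, 95% interval -0.51 to -0.05) in neither fit (adjusted p = 0.0638). The member median was -0.56, beside 0.02 for all genes.

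**Figure D3:**
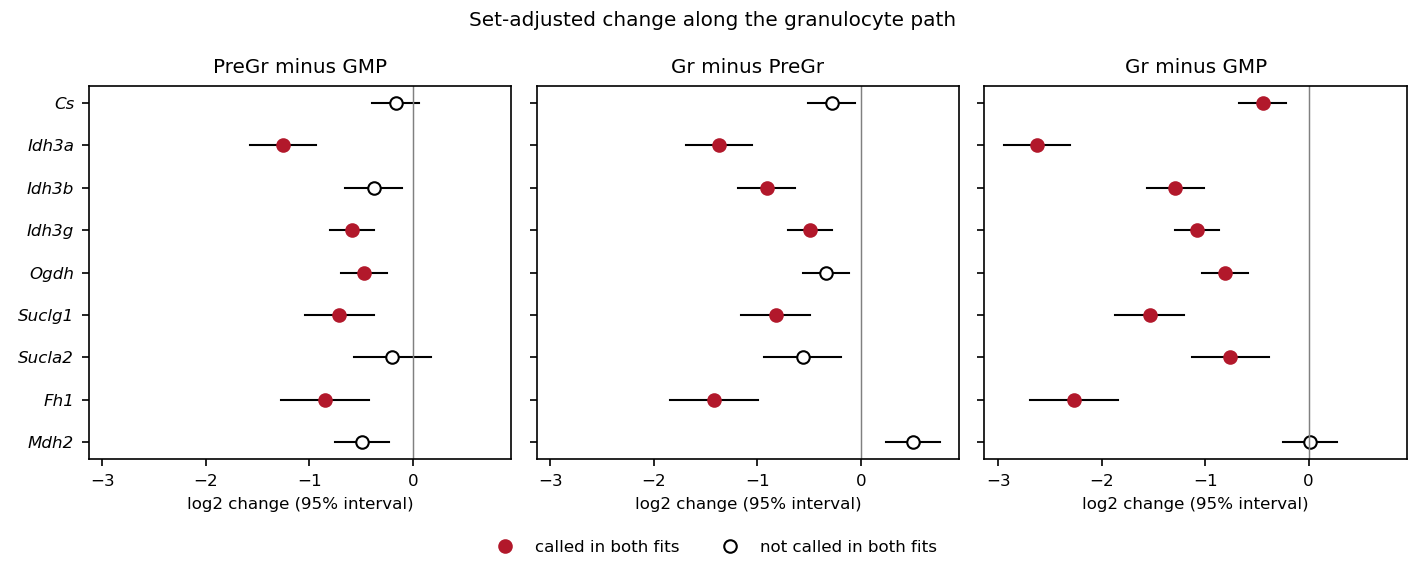
Set-adjusted log2 change of each of the 9 genes (rows) in PreGr minus GMP, Gr minus PreGr and Gr minus GMP (panels, horizontal axis in log2 units); points are estimates and lines 95% intervals, filled where both limma fits called the gene. Over the whole path Idh3a changed by -2.63 and Fh1 by -2.27, while the interval of Mdh2 runs from -0.25 to 0.27.

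Set end to end, a comparison chosen after the values were seen, 8 of the 9 members fell in Gr against GMP, while 19.2 percent of all genes fell and 15.2 percent rose. Each fit alone called these 8, beside 42 percent of all genes set-adjusted and 35.4 percent without sets. The 3 comparisons of this path share arrays, so their counts are not separate evidence. Idh3a fell by 2.63 ± 0.15, or 6.18-fold with dim values in Gr, and Fh1 by 2.27 ± 0.21, or 4.82-fold (limma, adjusted p = 2.19e-12 and 3.52e-09). Suclg1 fell by 1.53 ± 0.16, Idh3b by 1.29 ± 0.13, Idh3g by 1.08 ± 0.10 and Ogdh by 0.81 ± 0.11. Sucla2, at 9.69, 9.16 and 9.24 in Gr against 10.10, 10.14, 10.11 and 9.52 in GMP, fell by 0.76 ± 0.18. Gr 1 and GMP 4 overlapped there, and the Sucla2 call in the fit without sets (adjusted p = 0.0478) was lost when any one of 20 arrays was left out, with adjusted p up to 0.18. Cs was at 10.04, 10.19 and 10.05 in Gr, against 10.61, 10.51, 10.50 and 10.51 in GMP, and fell by 0.44 ± 0.11, or 1.36-fold (limma, adjusted p = 0.00186).

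Mdh2 alone was not called in that comparison, with a change of 0.01 ± 0.13 and a 95% interval of -0.25 to 0.27 (limma, adjusted p = 0.96). Arrays of Gr and GMP did not overlap in 7 of 9 members, Mdh2 and Sucla2 being the exceptions, where 43.9 percent of all genes had no overlap. The difference between Mdh2 and the other members was not tested. The median of the 9 members was -1.08, beside 0.03 for all genes. In these bulk samples, fewer cells that express a gene and less RNA of it per cell cannot be told apart. Quantile normalization also makes each value relative to the other genes of its array. The amount of RNA per cell was not measured, so a change in the other genes cannot be told apart either.

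Markers of other cells moved over the same steps. The mean log2 level of 7 B and plasma cell genes ranged from 7.90 to 8.90 in Gr and from 7.59 to 8.20 in PreGr, against 6.33 to 6.44 in GMP. In Gr against GMP 6 of the 7 rose, beside 15.2 percent of all genes. For 8 monocyte and macrophage genes the means were 8.37 to 9.05 in Gr, 9.41 to 9.78 in PreGr and 8.67 to 8.84 in GMP. Of these, 4 rose in PreGr against GMP, beside 6.63 percent of all genes, and 6 fell in Gr against PreGr, beside 11.2 percent. Of 6 T and NK cell genes, 3 rose in PreGr against GMP. In Gr against PreGr 3 of them fell and 1 rose, where 8.12 percent of all genes rose. The 6 mast cell, basophil and eosinophil genes averaged 7.77 to 9.26 in Gr, 8.80 to 9.66 in PreGr and 8.33 to 8.52 in GMP. Their part in the changes of the cycle enzymes was not tested.

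Upstream of this path, CMP were compared with MPP4. All 9 members had a higher set-adjusted value in CMP, by 0.01 (Sucla2) to 0.65 (Fh1), with a median of 0.47, but 0 passed both fits, where 2.57 percent of all genes rose and 1.46 percent fell. The set-adjusted fit called 2 members and 7.23 percent of all genes, and the fit without sets 1 member and 5.1 percent. Ogdh was at 9.87, 9.94 and 9.73 in CMP, against 9.42, 9.36, 9.34, 10.12 and 9.73 in MPP4. MPP4 4 and 5, the MPP4 arrays of set 2, stood above the others. The change of Ogdh was 0.47 ± 0.11 (limma, adjusted p = 0.00837), and 0.329 without sets. Mdh2 was at 11.19, 10.82 and 11.12 in CMP, against 10.49 to 10.65 in MPP4, with no overlap and a change of 0.47 ± 0.13 (limma, adjusted p = 0.024), but it too missed the fit without sets (adjusted p = 0.119). Idh3a, at 8.99, 9.46 and 9.22 in CMP against 8.53 to 8.84 in MPP4, was called by limma only without sets (set-adjusted change 0.47 ± 0.15, adjusted p = 0.0667, and 0.0253 without sets). Leaving out CMP 1 or PreGr 2 brought it past both fits, as leaving out LT-HSC 4 did for Mdh2. In a fit of the 6 set 4 arrays alone, limma called 5 members higher in CMP: Idh3a, Ogdh, Suclg1, Fh1 and Mdh2 (adjusted p = 0.0147 to 0.0479). The share of all genes called in that fit is not given here, so whether this count stands out cannot be said. Markers of other cells moved in the same comparison. The mean of 6 mast cell, basophil and eosinophil genes was 7.64 to 7.79 in CMP, against 6.06 to 6.67 in MPP4, and 4 of the 6 rose. That of 8 monocyte and macrophage genes was 7.62 to 7.98 in CMP, against 6.78 to 6.93 in MPP4, and 4 of the 8 rose. For 5 erythroid genes it was 8.11 to 8.14 in CMP, against 7.03 to 7.48 in MPP4, and 2 of the 5 rose. Their part in the values of the cycle enzymes was not tested.

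GMP were then compared with CMP. Neither fit called any of the 9, where 0.527 percent of all genes rose and 0.517 percent fell in both fits, and 1.32 percent were called set-adjusted and 11.7 percent without sets. Set-adjusted changes in GMP against CMP ran from -0.28 (Ogdh) to 0.41 (Idh3a), and their intervals were wide, such as -0.17 to 0.98 for Idh3a, because GMP 4 alone links GMP to the other sets. Against MPP4, Idh3a rose in GMP by 0.87 ± 0.23 (limma, adjusted p = 0.025), where 2.65 percent of all genes rose. That set-adjusted value compares GMP 4 alone with MPP4 4 and 5, and Idh3a was at 9.52 in GMP 4, against 9.26 to 9.29 in GMP 1 to 3.

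Among stem cells and multipotent progenitors, 1 member was called in the comparisons between neighbours. In MPP4 against LT-HSC, 1 of the 9 members rose, where 0.873 percent of all genes rose and 1.11 percent fell. Each fit alone also called 1 member, beside 2.74 percent of all genes set-adjusted and 24.7 percent without sets. Cs, which encodes the entry enzyme, was at 10.13, 10.18, 10.09, 10.54 and 10.53 in MPP4, against 9.59, 10.02, 9.98 and 9.90 in LT-HSC. Every MPP4 array lay above every LT-HSC array, and Cs rose by 0.63 ± 0.16 (limma, adjusted p = 0.0369). The set-adjusted value compares MPP4 4 and 5 with LT-HSC 4, and without MPP4 4 (adjusted p = 0.127) or MPP4 5 (adjusted p = 0.0555) it was not called. Mdh2 was at 10.49 to 10.65 in MPP4, and at 11.05, 10.71, 11.15 and 9.95 in LT-HSC. LT-HSC 4 lay apart from the other 3, so the set-adjusted change was 0.67 ± 0.19 (limma, adjusted p = 0.0554) and that without sets -0.12.

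Further along, Cs rose in CMP against LT-HSC by 0.87 ± 0.20 (limma, adjusted p = 0.0111), the 1 member of 9 that rose, where 1.73 percent of all genes rose. Mdh2 rose in GMP by 1.22 ± 0.22 and in Gr by 1.23 ± 0.25 against LT-HSC (limma, adjusted p = 0.000797 and 0.000905), and Fh1 rose in GMP by 1.24 ± 0.36 (limma, adjusted p = 0.0331). In GMP against LT-HSC 3.35 percent of all genes rose, and in Gr against LT-HSC 11.4 percent rose and 11.3 percent fell. In Gr, 4 members fell below LT-HSC, which were Idh3a (-2.01 ± 0.31), Idh3b (-1.08 ± 0.27), Idh3g (-0.82 ± 0.20) and Suclg1 (-0.88 ± 0.32). All of these set-adjusted changes share LT-HSC 4 as their base, where Mdh2 was at 9.95, against 10.71 to 11.15 in LT-HSC 1 to 3. In GMP against LT-HSC the set-adjusted change is GMP 4 minus LT-HSC 4, 1 array each. Its SE comes from the spread pooled over all arrays. Gr is linked to LT-HSC through GMP 4 as well. The fit without sets, which uses all 4 LT-HSC arrays, gave smaller rises of 0.49 for Cs, of 0.59 and 0.65 for Mdh2 in GMP and Gr, and of 0.62 for Fh1.

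In ST-HSC against LT-HSC, 0 of the 9 members passed both fits, where 0.246 percent of all genes rose and 0.291 percent fell. The set-adjusted fit called 0 members and 1.47 percent of all genes. Without sets all 9 had lower values in ST-HSC, and 2 were called, Idh3a (-0.41, adjusted p = 0.0416) and Fh1 (-0.74, adjusted p = 0.0139), beside 22.8 percent of all genes. Fh1 was at 8.76, 9.06 and 8.65 in ST-HSC, against 9.43, 9.87, 9.74 and 9.22 in LT-HSC. These arrays did not overlap, but with the set as a block the change of Fh1 was 0.08 (95% interval -0.80 to 0.96). Its direction thus depends on the sets. In that fit ST-HSC is linked to LT-HSC only through MPP3 3, with Fh1 at 9.75, and LT-HSC 4, at 9.22.

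MPP2 and MPP3 were compared with ST-HSC within set 3. In MPP2 against ST-HSC 0 of 9 members were called, where 2.8 percent of all genes rose and 3.78 percent fell. Neither fit alone called a member, beside 10.8 percent of all genes set-adjusted and 6.58 percent without sets. Idh3b came closest, at 9.20, 9.56 and 9.85 in MPP2 against 9.91, 10.08 and 9.74 in ST-HSC, with a change of -0.38 ± 0.13 (limma, adjusted p = 0.0756). MPP3 against ST-HSC also gave 0 of 9, with 1.58 percent of all genes up and 0.767 percent down in both fits, 3.12 percent called set-adjusted and 3.15 percent without sets. The 95% intervals of the changes there included -0.03 to 0.92 for Fh1 and 0.06 to 0.57 for Cs. Between MPP2 and MPP3, 0 of 9 were called, where 0.16 percent of all genes rose in MPP2 and 0.502 percent fell in both fits, 1.06 percent were called set-adjusted and 0.963 percent without sets. Set-adjusted changes there lay between -0.32 (Sucla2) and 0.08 (Idh3g). A missed threshold does not show that these populations were alike. Markers of other cells rose against ST-HSC too, and 0 fell. Of 7 B and plasma cell genes, 4 rose in MPP3 and 1 in MPP2. Of 6 T and NK cell genes, 3 and 1 rose, and of 6 mast cell, basophil and eosinophil genes, 3 and 3. Of 5 erythroid genes, 0 rose in MPP3 and 2 in MPP2, and of 8 monocyte and macrophage genes 1 and 0. The part of these markers in the cycle enzyme values was not tested.

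Other genes of the pathway were followed as lists, whose granulocyte changes add the neighbouring reactions. Of 7 other subunits of the cycle, 5 fell in Gr against GMP, where 19.2 percent of all genes fell. Suclg2, the GTP-forming beta subunit of succinyl-CoA ligase, averaged 7.02 in Gr and 10.06 in GMP and fell by 3.04 ± 0.19 (limma, adjusted p = 5.33e-12). Its Gr mean lay below the array median of 7.21 and detection was not tested, so the size of this change is uncertain. The estimate was larger than that of Sucla2, the other beta subunit (-0.76), a difference that was not tested. Sdha, the flavoprotein of succinate dehydrogenase, fell by 0.91 ± 0.12, and Dld, the dihydrolipoamide dehydrogenase shared by several complexes, by 0.80 ± 0.12. Dlst (0.17) and Sdhd (-0.23) were not called. At the single steps 3 of 7 fell in PreGr against GMP, where 8.98 percent of all genes fell, and 2 of 7 in Gr against PreGr, where 11.2 percent fell.

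Of 11 genes of pyruvate entry, 7 fell in Gr against GMP, beside 19.2 percent of all genes. Pdk1, a kinase that inhibits pyruvate dehydrogenase, fell by 2.28 ± 0.18, Pdhx, a binding component of that complex, by 1.53 ± 0.20, Pdp2, a phosphatase that activates it, by 1.49 ± 0.14, and Dlat, its acetyltransferase, by 0.97 ± 0.10. Genes for an inhibitor, an activator and components of pyruvate dehydrogenase were therefore all among those that fell. Pdk3, another of its kinases, fell by 0.66 ± 0.16 in PreGr against GMP and rose by 0.70 ± 0.16 in Gr against PreGr.

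Of 10 genes of side reactions, 2 fell and 1 rose in Gr against GMP, where 19.2 percent of all genes fell and 15.2 percent rose. Got2, the mitochondrial aspartate aminotransferase, fell by 0.81 ± 0.11, and the citrate carrier gene Slc25a1 by 0.68 ± 0.15, while the 2-oxoglutarate carrier gene Slc25a11 rose by 0.37 ± 0.11. Got2 rose in CMP against MPP4 (0.66 ± 0.11), in MPP2 against ST-HSC (0.48 ± 0.11) and in MPP3 against ST-HSC (0.49 ± 0.12).

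A further list, named as isoforms outside the cycle, also holds mitochondrial enzymes such as Idh2. Of its 7 genes, 3 fell in Gr against GMP, beside 19.2 percent of all genes. Idh2, the NADP-dependent mitochondrial isocitrate dehydrogenase, averaged 8.48 in Gr and 11.20 in GMP and fell by 2.75 ± 0.14 (limma, adjusted p = 2.09e-13). Mdh1, the cytosolic malate dehydrogenase, fell by 1.05 ± 0.14, whereas its mitochondrial partner Mdh2 changed by 0.01 ± 0.13. Idh1, the cytosolic isocitrate dehydrogenase, changed by -0.26 (95% interval -0.56 to 0.04). It varied earlier, being lower in MPP2 than in ST-HSC (-1.20 ± 0.14) and in MPP4 than in LT-HSC (-0.84 ± 0.22), and higher in CMP than in MPP4 (0.83 ± 0.14) and in GMP than in CMP (1.66 ± 0.26).

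Regulators and general mitochondrial genes changed in the same comparison. Of 10 regulators of mitochondrial genes, 6 fell in Gr against GMP, beside 19.2 percent of all genes. Among them were Myc, a transcription factor of cell growth (-3.52 ± 0.17), Tfam, which packages mitochondrial DNA (-1.71 ± 0.17), Pprc1, a coactivator (-1.40 ± 0.15), and Tfb2m, a mitochondrial transcription factor (-1.13 ± 0.18). Of 9 genes of mitochondrial content, chiefly channels, import and chaperones, 8 fell beside that same share, with Hspa9 (-2.66 ± 0.20), Hspd1 (-1.95 ± 0.13), Phb2 (-1.54 ± 0.13) and Tomm20 (-1.32 ± 0.20) the largest changes. The median change of that list was -1.31, beside -1.08 for the 9 cycle enzymes. The difference between the lists was not tested.

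**Figure D4:**
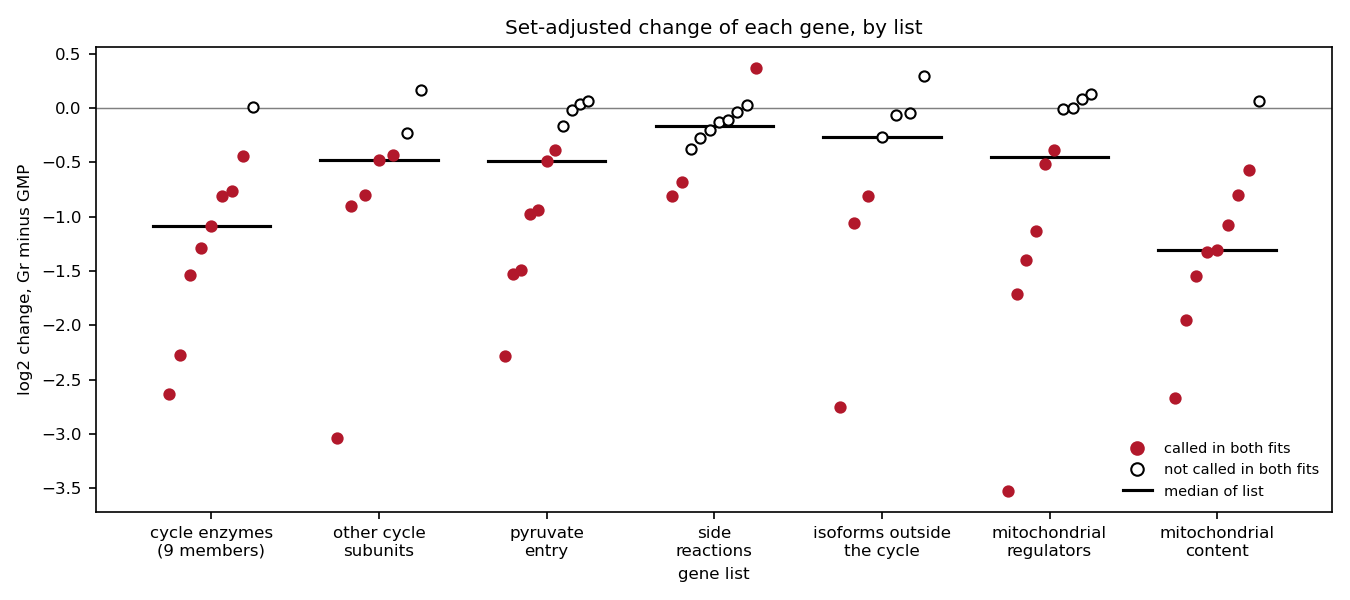
Set-adjusted log2 change in Gr minus GMP (vertical axis) of each gene, by list (horizontal axis); filled points were called in both limma fits and bars mark list medians. The median is -1.08 for the 9 cycle enzymes and -1.31 for mitochondrial content, and -0.17 for side reactions.

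Among themselves the members followed partly shared profiles. Over the 9 set-adjusted population means, the Pearson correlation of a pair of members ran from -0.46 to 0.96, with a median of 0.60, and 33 of 36 pairs were above 0. The points share arrays and sets, so these values are descriptions. Ogdh and Suclg1 were the closest pair (0.96), and the 3 Idh3 subunits correlated with each other at 0.82 to 0.90. The 3 pairs below 0 were those of Mdh2 with Idh3a (-0.20), Idh3b (-0.46) and Idh3g (-0.26). With the mean of the other 8 members, Fh1 correlated at 0.97, Suclg1 at 0.83 and Mdh2 at 0.09.

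The genes outside the members whose 9 population means lay closest to the mean profile of the members were Mrpl19 (Pearson r = 0.991), Wdr74 (0.989), Timm23 (0.985), Eif3l (0.975), Phb2 (0.973), Mrto4 (0.971), Snrnp25 (0.970), Uqcc2 (0.970), Glrx5 (0.969) and Eif3b (0.968). Mrpl19 encodes a protein of the mitochondrial ribosome, Timm23 a channel of mitochondrial import and Phb2 a prohibitin. Eif3l and Eif3b encode subunits of a translation initiation factor. These are the highest of all genes tested over 9 points, so high values were certain to appear.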

How the data were processed

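The members and gene lists were chosen with earlier results of these data known. The authors' deposited values are log2 values made by RMA, per the submitters' processing notes, whose version is not given in the sources used here. RNA was amplified with NuGen kits before hybridisation, per the labels' protocols, which can change relative levels. Of 35557 probes, 21789 pair with 1 gene, of which 21698 matched RefSeq, 1621 pair with several and 12147 with none. The brightest probe stood for each of 999 genes with several, leaving 19938 genes. Named from other lists were up to 4 genes per comparison called in both fits with the largest changes, and 10 by likeness, passing over predicted genes.

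Values were quantile-normalized and fitted with limma 3.58.1 in R 4.3.3, with 1 mean per population over 31 arrays and the set as a fixed term, which left 18 residual degrees of freedom (22 without sets), with two-sided moderated tests and Benjamini-Hochberg adjustment over all genes within a comparison. Sets are arrays linked by 2 or more identical deposited values. Intervals are 95%. This takes the shift of a gene by a set to be the same whichever population was hybridised. Array number per group limits the precision. Fits were tested on simulated data. Same-numbered arrays of LT-HSC and MPP4 had residuals correlated at 0.126 to 0.271 around population means, but at -0.0292 to 0.0603 with sets, and no label gives a number a shared animal or day, so the number entered only as an alternative. Figures used matplotlib 3.10.9 in Python 3.11.15. The Gr against GMP comparison was added after seeing the data.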

Additional observations from a re-analysis of the deposited data

Results flagged for a closer look

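Over 27 combinations of a member and a population with 4 or 5 arrays, 4 had an array set apart from the others by Dixon's test, which chance gives in about 1 of 20 groups. Cs was at 10.61 in GMP 1, against 10.50 to 10.51 in the other GMP arrays, and Idh3a at 9.52 in GMP 4, against 9.26 to 9.29. Sucla2 was at 9.52 in GMP 4, against 10.10 to 10.14 in GMP 1 to 3. Idh3b was at 9.82 in LT-HSC 4, against 10.51 to 10.63 in LT-HSC 1 to 3. GMP 4 and LT-HSC 4 belong to set 2, while the other arrays of their populations belong to sets 5 and 1. The part of the set in these gaps was not tested.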

How the results depend on the processing

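The set-adjusted fit called 0 members in ST-HSC against LT-HSC, 1 in MPP4 against LT-HSC, 2 in CMP against MPP4, 7 in PreGr against GMP and 8 each in Gr against PreGr and Gr against GMP. Without the set block these counts were 2, 1, 1, 5, 5 and 8. The deposited values with the set block gave 0 in MPP4 against LT-HSC and 7 in CMP against MPP4, where leaving out dim genes gave 4 and using 1 set gave 5. The shares of all genes called under these settings are not given here. Of 90 gene results, Fh1 in ST-HSC against LT-HSC reversed without sets (-0.7436, adjusted p = 0.0139, limma), and the cause was not tested. Over all other settings 567 values kept their direction and side of the threshold, or changed sign with neither called (33 of them), 16 were called in addition and 10 lost. With 1 array left out, counts of the set-adjusted fit alone ranged from 0 to 0 for ST-HSC against LT-HSC, MPP3 against ST-HSC, MPP2 against MPP3 and GMP against CMP, 0 to 1 for MPP2 against ST-HSC, 0 to 2 for MPP4 against LT-HSC and 1 to 4 for CMP against MPP4. They were 6 to 7 for PreGr against GMP, 6 to 9 for Gr against PreGr, 8 to 8 for Gr against GMP and 8 to 9 for the F test. Members that fell in both fits then numbered 4 to 6 in PreGr against GMP, 4 to 5 in Gr against PreGr and 7 to 8 in Gr against GMP, with 7 in 20 of 31 cases. Neither ST-HSC nor MPP4 could be compared with LT-HSC without LT-HSC 4, nor ST-HSC without MPP3 3, nor GMP with CMP without GMP 4. When a replicate block was added to the set block, the counts were 1 in MPP4 against LT-HSC, 3 in CMP against MPP4, 7 in PreGr against GMP, 9 in Gr against PreGr and 8 in Gr against GMP. That replicate block added Idh3a in CMP against MPP4 (0.4691, adjusted p = 0.0345, limma) and Cs in Gr against PreGr (-0.2793, adjusted p = 0.0458, limma), changed no other call, and could not be fitted for ST-HSC against LT-HSC. The shares of all genes called with 1 array left out or with the replicate block are not given here either. Dim or rarely bright probes were not assessed for detection, since the deposited values hold no detection call.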
